A study of Sus scrofa with 6 samples.

Results

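Collagen crosslinking and processing enzymes were described in porcine embryonic fibroblasts (PEFs) and in the porcine induced pluripotent stem cells (piPSCs) made from them. The 10 genes were taken by symbol from the expression table. They are the lysyl oxidases LOX, LOXL1 and LOXL2, the lysyl hydroxylases PLOD1, PLOD2 and PLOD3, the prolyl 4-hydroxylase subunits P4HA1 and P4HA2, the collagen chaperone SERPINH1 and the procollagen protease BMP1. All 10 were among the 18007 genes of the table and among the 12428 genes with a mean of at least 0.5 FPKM (fragments per kilobase of gene, scaled to 1000000 fragments) over the libraries. That filter acts on the mean of all libraries, so a gene that is high in PEFs alone passes it.

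The fibroblast lines PEF5, PEF7 and PEF8 came from the ear tips of embryos at embryonic day 90 from a Longwhite boar, called Large White in the study's methods, and a Meishan sow. From each line, lentiviruses carrying Oct4, Sox2, Klf4 and c-Myc under a doxycycline-controlled promoter, with the M2rtTA activator, gave piPSC5, piPSC7 and piPSC8 in LF2i medium. The fibroblasts themselves received no factors. Poly-A RNA of each line was sequenced as 1 library, which gave 3 PEF and 3 piPSC libraries, so each p-value below measures the spread between lines. The piPSCs depend on doxycycline to persist and were expanded on feeders of mouse embryonic fibroblasts. Fragments of such feeders cannot be told apart from pig fragments in a table of values per gene. Whether feeders were in the sequenced RNA is not stated, and their part in the piPSC values was not tested.

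Collagen chains are modified while they fold in the endoplasmic reticulum. Prolyl 4-hydroxylases stabilise the triple helix, lysyl hydroxylases prepare lysines for sugars and for crosslinks, and SERPINH1 (HSP47) binds the folded helix and accompanies it to the Golgi. After secretion, BMP1 removes the carboxy-terminal propeptide, and the copper-dependent lysyl oxidases oxidise lysines so that neighbouring molecules become crosslinked. Dermal fibroblasts are known for high activity of the whole route.

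The libraries held between 11010629 and 17836510 fragments, with the 3 piPSC libraries below the 3 PEF libraries. Y-linked genes stood against the study's description of all lines as male. Their summed level was 39.9 FPKM in PEF8 and 60.8 FPKM in piPSC8, against 0 in PEF5, PEF7 and piPSC7 and 0.0140 FPKM in piPSC5. Markers met the labelled cell types in part. All 7 fibroblast markers were called lower in piPSCs, and none was at 0 in any library. Their summed level was 2996 to 3469 FPKM in PEFs and 269, 300 and 96.9 FPKM in piPSC5, piPSC7 and piPSC8, with piPSC8 the lowest by sum, most of which is VIM. Of the pluripotency markers, SOX2 stood at 3.01, 2.49 and 0.129 FPKM in piPSC5, piPSC7 and piPSC8 and LIN28B at 2.51, 0.281 and 8.90 FPKM, so that the lines differed in order between the markers. NANOG, SALL4 and ESRRB reached no more than 0.0919, 0.0509 and 0.0141 FPKM in any piPSC library. SOX2 and LIN28B were tested, and neither was called. Sums over the other marker lists were at most 1.06 FPKM for epithelial, 7.94 for cartilage, 2.59 for endothelial and 3.85 for keratinocyte markers. Of the epithelial list, CDH1 and EPCAM reached no more than 0.113 and 0.0144 FPKM in any piPSC library. Leukocyte markers summed to 22.8 FPKM in PEF7, of which CD14 was 21.9 FPKM. Muscle markers summed to 14.2 FPKM in piPSC7, nearly all of it DES at 14.16 FPKM.

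Sequences before the RefSeq start of 4 of the genes are shown, from both sides of the comparison. LOX and PLOD2 did not pass the test, LOXL1 had the largest change of the 10 genes and P4HA2 the third largest. Each is the 250 bases before the RefSeq start on Sscrofa11.1, read 5′ to 3′ on the gene's own strand, which is the minus strand for all 4. The windows are chr2:125607027-125607276 for LOX, chr13:86513168-86513417 for PLOD2, chr7:59505162-59505411 for LOXL1 and chr2:134595445-134595694 for P4HA2. The expression values use other gene positions, with starts further upstream. Those of LOX and PLOD2 are at 125607594 and 86513631, so both windows lie inside these genes. Those of LOXL1 and P4HA2 are at 59505269 and 134595499, so a part of each window does. Which start the cells use was not tested. Capitals mark matches on either strand to the hypoxia response core ACGTG, the AP-1 motif TGANTCA, the TEAD motif GGAATG or the RUNX motif TGTGGT.
LOX: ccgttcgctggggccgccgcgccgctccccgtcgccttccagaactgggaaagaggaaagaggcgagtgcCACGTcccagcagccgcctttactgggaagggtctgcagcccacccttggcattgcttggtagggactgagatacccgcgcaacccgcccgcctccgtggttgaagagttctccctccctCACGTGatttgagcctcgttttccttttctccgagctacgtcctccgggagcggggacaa
PLOD2: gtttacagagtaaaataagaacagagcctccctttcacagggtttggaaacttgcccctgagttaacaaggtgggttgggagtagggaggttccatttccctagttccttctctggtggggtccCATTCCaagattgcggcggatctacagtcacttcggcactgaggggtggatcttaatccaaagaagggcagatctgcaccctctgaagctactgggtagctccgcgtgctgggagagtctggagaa
LOXL1: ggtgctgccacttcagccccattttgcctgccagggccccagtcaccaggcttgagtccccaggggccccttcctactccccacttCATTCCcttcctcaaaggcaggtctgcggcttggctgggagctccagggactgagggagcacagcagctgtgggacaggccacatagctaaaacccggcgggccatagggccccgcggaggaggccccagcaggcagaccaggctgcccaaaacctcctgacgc
P4HA2: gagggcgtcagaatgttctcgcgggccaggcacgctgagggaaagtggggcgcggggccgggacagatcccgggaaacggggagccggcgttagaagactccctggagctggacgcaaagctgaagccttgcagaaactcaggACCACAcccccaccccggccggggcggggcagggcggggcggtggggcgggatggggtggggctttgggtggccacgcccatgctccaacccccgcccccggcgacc
The LOX window holds the hypoxia core 3 times, at 180, 60 and 59 bases before the RefSeq start. The last 2 matches are the overlapping strands of a palindrome. Elsewhere among the 10 genes, that core was present in PLOD3 alone, while 18.7% of 19569 windows of this length hold it. The TEAD letters were found in LOXL1 and PLOD2, so in 1 gene that was far lower and in 1 that was not called, against 10.3% of all windows. The RUNX letters were found in LOXL2, PLOD1, P4HA1 and P4HA2, which is 4 of 10 against 14.0%. The AP-1 letters were found in PLOD3 only, against 5.3% of all windows. The windows of SERPINH1 and BMP1 hold none of the 4 motifs. A match of letters is a description and not a bound site.

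The summed level of the 10 genes was 1195, 1219 and 1242 FPKM in PEF5, PEF7 and PEF8 and 239, 250 and 208 FPKM in piPSC5, piPSC7 and piPSC8. The means were 1219 ± 23.4 and 232 ± 21.7 FPKM (SD, n = 3 each), and the groups lay far apart. In limma's fit over all tested genes, 8 of the 10 genes were called lower in piPSCs, at an adjusted p under 0.05 and a change of at least 2-fold, against 16.7% of all tested genes. None of the 10 was called higher, against 20.2% of all tested genes. The median log2 fold change was -2.79 for the 10 genes and 0.20 for all tested genes. In bulk RNA, fewer cells of a type and less RNA per cell cannot be told apart. Leaving out piPSC8 raised the count to 10 of 10, against 15.2% of all genes, and the line as a block gave 9 of 10, against 16.3%.

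**Figure D1:**
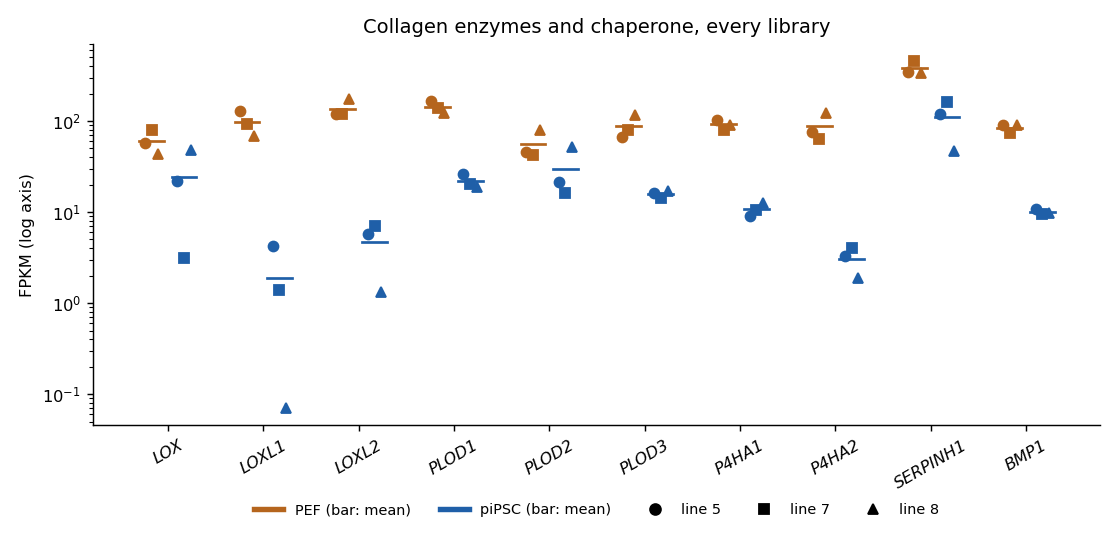
FPKM of the 10 genes on a log axis, with PEF libraries in brown and piPSC libraries in blue. The marker shape gives the line and the bar the group mean of 3 libraries. The groups are apart for 8 genes and overlap for LOX and PLOD2, and LOXL1 in piPSC8 lies lowest at 0.0709 FPKM.

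P4HA1 and P4HA2 encode alternative catalytic subunits of collagen prolyl 4-hydroxylase. P4HA1 (ENSSSCG00000010292, chr14:75825115-75919125) stood at 103, 80.5 and 91.4 FPKM in PEF5, PEF7 and PEF8 and at 9.12, 10.6 and 12.6 FPKM in piPSC5, piPSC7 and piPSC8. Every piPSC value lay far below every PEF value and the 3 lines were close to each other. In limma the log2 fold change was -2.98 (SE 0.18, adjusted p = 0.000179). P4HA2 (ENSSSCG00000020915, chr2:134502212-134595499) stood at 75.6, 63.8 and 123 FPKM in PEFs and at 3.30, 4.04 and 1.88 FPKM in piPSCs. Line 8 had both the highest PEF value and the lowest piPSC value. It changed by -4.42 on the log2 scale (SE 0.32, adjusted p = 0.000266), and the piPSC mean was 3.51% of the PEF mean, against 11.8% for P4HA1. The partner subunit P4HB, a protein disulfide isomerase with many other clients, stood at 549, 549 and 483 FPKM in PEFs and 361, 345 and 281 FPKM in piPSCs. Its groups did not overlap, yet the log2 fold change of -0.68 (SE 0.16, adjusted p = 0.0136) was under 2-fold, so it was not called. With each library rescaled to a sum of 1000000 it was -1.01 and was called.

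The PLOD genes encode lysyl hydroxylases. PLOD1 (ENSSSCG00000003433, chr6:71987933-72019707), which acts on lysines of the helix, stood at 164, 137 and 122 FPKM in PEFs and 26.4, 20.4 and 19.1 FPKM in piPSCs. The order of the lines was the same in both groups, with line 5 highest and line 8 lowest. Its log2 fold change was -2.63 (SE 0.19, adjusted p = 0.000266). PLOD3 (ENSSSCG00000028879, chr3:8911789-8919516), whose protein also adds sugars to hydroxylysine, stood at 66.5, 79.3 and 116 FPKM in PEFs and 16.1, 14.2 and 17.1 FPKM in piPSCs. The PEF lines spread over 1.74-fold and the piPSC lines over 1.21-fold, with no overlap between groups. Its log2 fold change was -2.36 (SE 0.23, adjusted p = 0.000555).

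PLOD2 (ENSSSCG00000011689, chr13:86401762-86513631) encodes the enzyme that hydroxylates lysines of the telopeptides, where crosslinks form. It stood at 45.3, 42.7 and 79.8 FPKM in PEF5, PEF7 and PEF8 and at 21.2, 16.2 and 52.2 FPKM in piPSC5, piPSC7 and piPSC8. Line 8 was the highest in both groups, and piPSC8 lay above PEF5 and PEF7, so the groups overlap. The log2 fold change was -1.0 (SE 0.46, 95% confidence interval -2.10 to 0.09, adjusted p = 0.108), and PLOD2 was not called. Each piPSC line nevertheless lay below its own PEF line, with log2 ratios of -1.06, -1.34 and -0.60. With the line as a block the same log2 fold change passed (adjusted p = 0.0171). Without piPSC8 it was -1.48 (adjusted p = 0.0148), whereas it was -0.67 without piPSC7, -0.72 without PEF8 and -0.85 without piPSC5 (adjusted p = 0.271, 0.274 and 0.25). Rescaling each library to a sum of 1000000 gave -1.34 (adjusted p = 0.0488).

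SERPINH1 (ENSSSCG00000039468, chr9:9782939-9794484) had the highest level of the 10 genes in all 3 PEF lines and in 2 piPSC lines. It stood at 345, 452 and 336 FPKM in PEFs and at 121, 163 and 46.6 FPKM in piPSCs. The groups did not overlap, but piPSC8 lay far below the other piPSC lines. The log2 fold change was -1.93 (SE 0.45, 95% confidence interval -3.00 to -0.86, adjusted p = 0.0121), the smallest change among the 8 genes called. BMP1 (ENSSSCG00000009620, chr14:6443923-6489061) stood at 90.1, 72.9 and 89.7 FPKM in PEFs and at 10.8, 9.51 and 9.69 FPKM in piPSCs. Its piPSC lines differed by 1.14-fold at most, the narrowest spread of the 10 genes in that group. It fell by 2.95 on the log2 scale (SE 0.15, adjusted p = 0.000137).

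LOXL1, P4HA2 and LOXL2 had the lowest mean levels in piPSCs. LOXL1 (ENSSSCG00000001914, chr7:59481407-59505269), an oxidase best known from elastic fibres, stood at 129, 92.7 and 68.8 FPKM in PEFs and at 4.25, 1.38 and 0.0709 FPKM in piPSCs. The last value is 2 fragments, against 2670 fragments in PEF8. The ratio of PEF8 to piPSC8 in FPKM was 970, with an exact 95% interval of 268 to 8020 that covers counting error only. The log2 fold change over the 3 lines was -5.32 (SE 0.57, adjusted p = 0.000792). LOXL2 (ENSSSCG00000033608, chr14:7435033-7540958), which acts on basement membrane collagen among other substrates, stood at 119, 119 and 173 FPKM in PEFs and at 5.77, 7.0 and 1.32 FPKM in piPSCs. As for P4HA2, line 8 was highest in PEFs and lowest in piPSCs. Its log2 fold change was -4.76 (SE 0.47, adjusted p = 0.000641).

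LOX (ENSSSCG00000014232, chr2:125591789-125607594) encodes the founding lysyl oxidase of collagen and elastin. It stood at 57.2, 79.1 and 43.0 FPKM in PEF5, PEF7 and PEF8 and at 21.8, 3.14 and 47.5 FPKM in piPSC5, piPSC7 and piPSC8. These values rest on 5496, 7118 and 3510 fragments in PEFs and 1764, 201 and 2814 fragments in piPSCs. The piPSC8 value lay just above that of its own PEF line, with a log2 ratio of 0.14, and the groups overlap. That direction depends on scaling: summed FPKM was 348943 in PEF8 and 435678 in piPSC8, and with both rescaled to a sum of 1000000 the log2 ratio was -0.18. The piPSC lines spread over 15.1-fold and the PEF lines over 1.84-fold. The log2 fold change was -1.83 (SE 0.85, 95% confidence interval -3.86 to 0.20, adjusted p = 0.111), and LOX was not called. Without piPSC8 it was -2.60 (adjusted p = 0.0316) and was called, and without piPSC7 it was -0.83 (adjusted p = 0.144). In piPSC8, the piPSC line with the highest LOX and PLOD2, the summed fibroblast markers were lowest, while DCN and LUM among them were lowest in piPSC7. The part of cell composition in these values was not tested.

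Log2 ratios of each piPSC line to its own PEF line had medians over the 10 genes of -2.77, -2.81 and -2.79 in lines 5, 7 and 8, while the medians over all tested genes were 0.21, 0.24 and 0.08. All 10 genes were at least 2-fold lower in line 5, all 10 in line 7 and 8 in line 8, where LOX and PLOD2 were the exceptions. The shares of all tested genes were 18.6%, 17.2% and 23.8%. At least 2-fold lower in every line were 8 of 10 genes, against 11.9% of all tested genes. The same 8 had every piPSC value under every PEF value, against 26.8% of all tested genes. BMP1 and PLOD1 had like ratios in every line, at -2.95, -2.81 and -3.09 for BMP1 and at -2.59, -2.69 and -2.61 for PLOD1. LOXL1, LOXL2 and P4HA2 had their lowest ratio in line 8, at -6.03, -6.23 and -5.43. SERPINH1 did as well, at -2.82 against -1.51 and -1.46. The medians of the lines were thus close, while line 8 held the lowest ratios of the 10 genes and the 2 that were nearest to 0. Line 8 alone had Y-linked genes at more than a trace, so its differences cannot be told apart from those of sex. The part of sex was not tested.

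**Figure D2:**
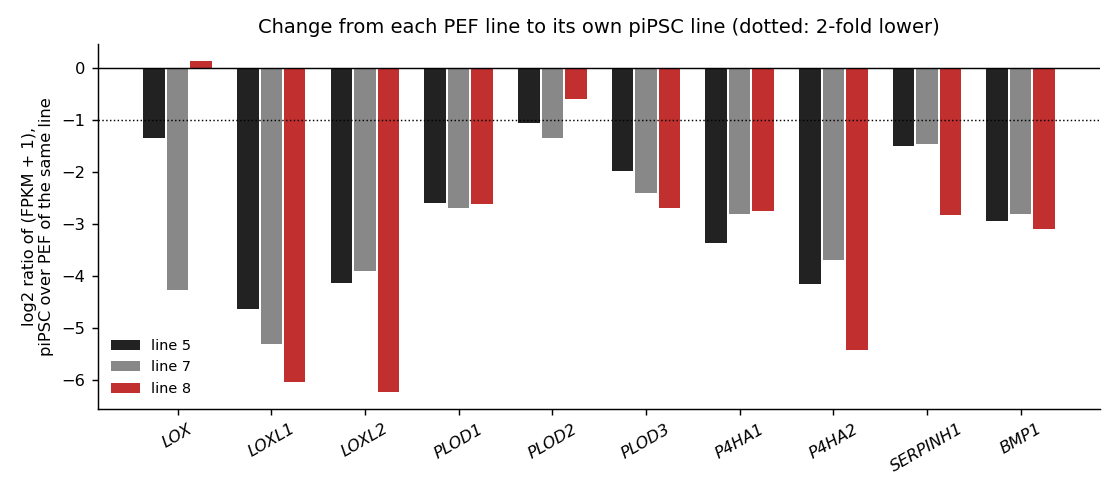
Log2 ratio of (FPKM + 1) of each piPSC line to its own PEF line for the 10 genes, with line 5 in black, line 7 in grey and line 8 in red. The dotted line marks 2-fold lower. All bars point down except LOX in line 8 at 0.14, which is -0.18 with libraries rescaled to a sum of 1000000, and PLOD2 in line 8 at -0.60 stays above the dotted line.

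FPKM are per length, so the members of a family can be compared within a library. Among the lysyl oxidases, LOX made up 18.7%, 27.2% and 15.1% of the summed FPKM of LOX, LOXL1 and LOXL2 in PEF5, PEF7 and PEF8 and 68.5%, 27.2% and 97.2% in piPSC5, piPSC7 and piPSC8. LOX was thus the main transcript in piPSC5 and piPSC8, but LOXL2 was in piPSC7, at 60.8%. LOXL1 made up 42.4%, 31.9% and 24.2% in PEFs and 13.4%, 12.0% and 0.145% in piPSCs. In shares of fragments, where longer genes weigh more, the mean difference in LOXL1 was -16.0 percentage points in place of -24.3. The ratio of LOX to LOXL2 was 3.77, 0.448 and 36.0 in the piPSC lines and 0.482, 0.665 and 0.249 in the PEF lines.

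Among the lysyl hydroxylases, PLOD2 made up 16.4%, 16.5% and 25.1% in PEFs and 33.2%, 31.9% and 59.0% in piPSCs. All 3 piPSC shares were above all 3 PEF shares. The FPKM of PLOD2 was 0.276, 0.311 and 0.655 times that of PLOD1 in PEFs and 0.803, 0.795 and 2.73 times in piPSCs, so that only piPSC8 had more PLOD2 than PLOD1. P4HA1 made up 57.8%, 55.8% and 42.6% of the sum of P4HA1 and P4HA2 in PEFs and 73.5%, 72.4% and 87.1% in piPSCs. The further subunit P4HA3 was not part of that sum. It stood at 219, 173 and 121 FPKM in PEFs and at 6.73, 7.31 and 22.85 FPKM in piPSCs. P4HA3 was thus above P4HA1 in every PEF line and in piPSC8, where P4HA1 was not the main subunit. PEF8 was the only library with more P4HA2 than P4HA1. The shares of LOX, LOXL1, PLOD2 and P4HA1 each gave p = 0.1 in a two-sided exact permutation test, the smallest that 3 libraries against 3 allow, and an adjusted p of 0.175 over the 7 shares tested. The shares of PLOD1 and PLOD3 gave p = 0.3 and that of LOXL2 p = 0.4 in the same exact test. None of the 7 could have passed 0.05.

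**Figure D3:**
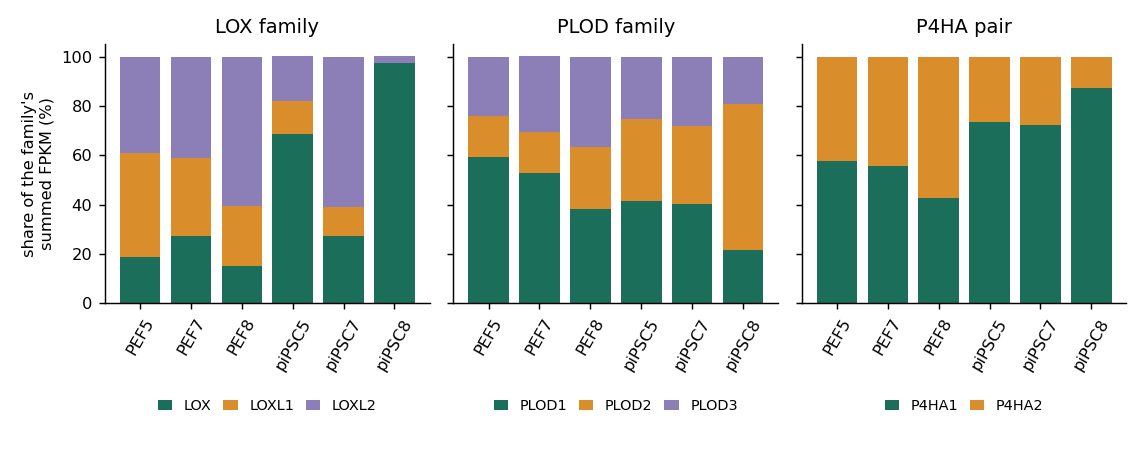
Shares of each family's summed FPKM in percent, by library, for LOX, LOXL1 and LOXL2, for PLOD1, PLOD2 and PLOD3, and for P4HA1 and P4HA2. The share of P4HA1 in its sum with P4HA2, without P4HA3, is 42.6% to 57.8% in PEFs and 72.4% to 87.1% in piPSCs. The share of LOX runs from 27.2% to 97.2% in piPSCs.

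The order of the levels changed accordingly. By mean FPKM, the PEF order was SERPINH1, PLOD1, LOXL2, LOXL1, P4HA1, P4HA2, PLOD3, BMP1, LOX and PLOD2. SERPINH1 was apart from the next gene in every PEF line, whereas each later neighbour overlapped with the one before it over the lines. The piPSC order was SERPINH1, PLOD2, LOX, PLOD1, PLOD3, P4HA1, BMP1, LOXL2, P4HA2 and LOXL1. PLOD2 and LOX, at the end of the order in PEFs, were next to SERPINH1 by the piPSC mean, which piPSC8 carries. In piPSC8 they were above SERPINH1, at 52.2 and 47.5 against 46.6 FPKM. In piPSC5 and piPSC7, PLOD1 came after SERPINH1. PLOD2 was at rank 4 and 3 there, and LOX at rank 3 and 9. Of the neighbours in the piPSC order, PLOD1 and PLOD3, PLOD3 and P4HA1, and BMP1 and LOXL2 did not overlap over the lines, with a lowest PLOD3 of 14.2 FPKM above a highest P4HA1 of 12.6 FPKM. The other neighbours overlapped.

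COL1A1 and COL1A2 encode the chains of type I collagen, the main fibrillar collagen of skin and a substrate of the enzymes. COL1A1 stood at 1627, 2822 and 869 FPKM in PEFs and at 58.4, 4.01 and 2.27 FPKM in piPSCs. COL1A2 stood at 1703, 2376 and 1414 FPKM in PEFs and at 44.8, 8.39 and 4.24 FPKM in piPSCs. Both chains were highest in piPSC5 and lowest in piPSC8 among the piPSC lines. They changed by -7.32 (SE 1.09, adjusted p = 0.00236) and -7.09 (SE 0.76, adjusted p = 0.000788) on the log2 scale, more than any of the 10 genes. Set against COL1A2 in the same library, all 10 genes had a higher mean in piPSCs than in PEFs on the log2 scale of (FPKM + 1). The difference ran from 1.77 for LOXL1 to 6.09 for PLOD2. That of LOXL1 leans on the added 1, as LOXL1 was 0.0709 FPKM and COL1A2 4.24 FPKM in piPSC8. In plain FPKM, LOXL1 beside COL1A2 was lower in piPSC8 than in PEF8. No other added value was tried for these differences. SERPINH1 went from a mean of -2.25 to 2.91 and was above COL1A2 in all 3 piPSC lines. Type III collagen gave another picture. COL3A1 stood at 496, 297 and 1640 FPKM in PEFs and at 94.2, 109 and 125 FPKM in piPSCs. Its log2 fold change was -2.51 (SE 0.59, adjusted p = 0.0126). Set against COL3A1, the differences ran from -2.81 for LOXL1 to 1.5 for PLOD2, and 6 of the 10 were negative. The differences depend on the chain chosen and carry no test.

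**Figure D4:**
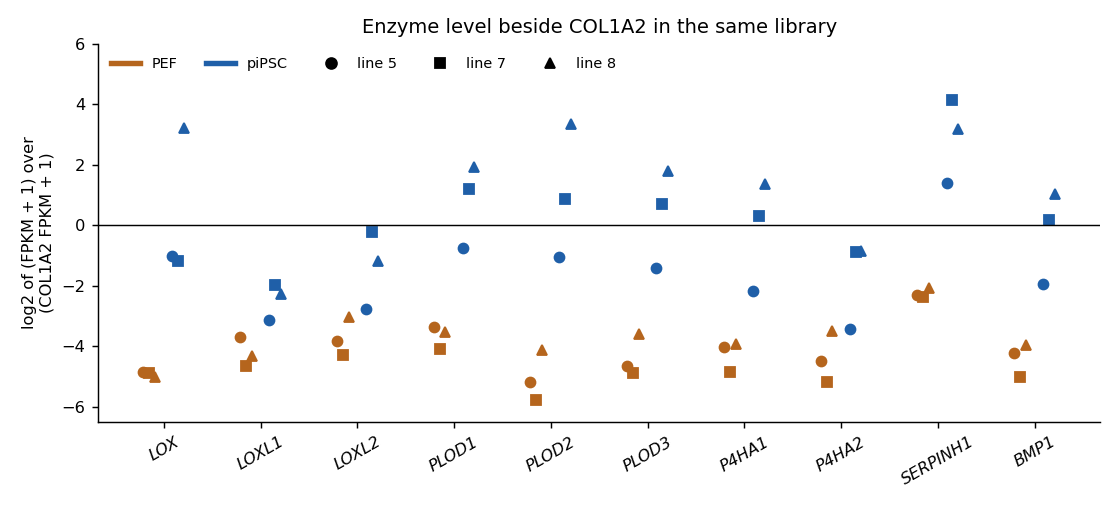
Log2 of (FPKM + 1) of each gene over (FPKM + 1) of COL1A2 in the same library, with PEFs in brown, piPSCs in blue and the line as marker shape. All PEF points lie below 0, and the group mean of every gene is higher in piPSCs, by 1.77 for LOXL1 and 6.09 for PLOD2. The LOXL1 difference leans on the added 1, as LOXL1 in piPSC8 is 0.0709 FPKM.

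Of the 8 tested substrate chains, 7 were called lower and none higher, with a median log2 fold change of -4.50. With quantile normalization 6 were called, as ELN, the elastin gene, had an adjusted p of 0.0525 in place of 0.0481 in limma. The exception was COL4A2, a basement membrane chain, at 39.3, 42.7 and 108 FPKM in PEFs and 2.38, 0.297 and 90.7 FPKM in piPSCs. As for LOX, piPSC8 was the high library and piPSC7 the low one. Without piPSC8, COL4A2 was called in limma (log2 fold change -4.78, adjusted p = 0.00326). ELN was not called in that fit (log2 fold change -3.42, adjusted p = 0.109), so the count stayed at 7. The groups of ELN overlap, with 0.972 FPKM in PEF8 and 1.12 FPKM in piPSC5. Of the 8 matrix scaffolds and copper suppliers, 6 were called lower, with a median of -3.68, led by the proteoglycan FMOD (-8.22, adjusted p = 0.000382) and by THBS1 (-6.98, adjusted p = 0.000101). FN1 encodes fibronectin, on which collagen is assembled outside the cell. It stood at 318, 643 and 190 FPKM in PEFs and 27.0, 1.63 and 94.9 FPKM in piPSCs, again highest in piPSC8 and lowest in piPSC7. It was called (-4.15, adjusted p = 0.0310) but not with the line as a block (adjusted p = 0.0614). ATP7A, the copper pump that loads lysyl oxidases, differed by -0.13 (SE 0.20) and was not called.

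Other enzymes of the route were taken from lists. Of 4 other crosslinking enzymes, 3 were called lower: PXDN, a peroxidase of basement membranes, at -4.83 (adjusted p = 0.000217), LOXL3 at -3.26 (adjusted p = 0.00264) and LOXL4 at -2.34 (adjusted p = 0.0319). TGM2, a transglutaminase, differed by -0.72 (SE 1.27) and was not called. Of 9 other hydroxylation and glycosylation genes that were tested, 4 were called lower, with a median of -0.83. These were the prolyl 4-hydroxylase subunit P4HA3 at -3.86 (adjusted p = 0.00114) and the prolyl 3-hydroxylases P3H3 at -3.41, P3H1 at -2.45 and P3H2 at -2.00. Partners of P3H1 were nearer to their PEF level. PPIB, the cyclophilin of that complex, stood at 23.0, 23.3 and 20.2 FPKM in PEFs and 20.1, 22.1 and 23.0 FPKM in piPSCs, and CRTAP differed by -0.83 (SE 0.25, adjusted p = 0.0313), under 2-fold. With libraries rescaled to the median ratio, CRTAP was called at -1.09 and 5 of the 9 genes were, and with a sum of 1000000 there were 6. COLGALT1, which adds galactose to hydroxylysine, differed by -0.20 (SE 0.29).

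Of 9 folding and export genes, 5 were called lower and 1 higher, with a median of -1.06. CREB3L1, a transcription factor of collagen-secreting cells, stood at 65.1, 60.6 and 57.6 FPKM in PEFs and 1.56, 1.00 and 0.287 FPKM in piPSCs (-5.05, adjusted p = 0.000145). The prolyl isomerases FKBP14 and FKBP10 differed by -2.09 and -1.26, and the transport genes SEC24D and KDELR2 by -1.26 and -1.06. TMEM38B, a cation channel of the endoplasmic reticulum, rose by 1.10 (adjusted p = 0.0112), but by 0.89 and uncalled when libraries were rescaled to the median ratio. Both rescalings raised the genes called lower from 5 to 7, adding MIA3 and SLC39A13. Of 7 tested trimming genes, 5 were called lower, with a median of -1.46, led by the amino-propeptidase ADAMTS2 (-3.60, adjusted p = 0.000375) and by PCOLCE (-3.07, adjusted p = 0.000343), which enhances BMP1. The other called genes were FURIN at -2.32, PCOLCE2 at -1.46 and ADAMTS14 at -1.11. With the line as a block 3 of the 7 were called lower. Without piPSC8 there were 3 called lower and 1 higher.

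General chaperones of the endoplasmic reticulum serve all secreted proteins, unlike SERPINH1. Of 10 tested, 2 were called lower, which is near the 16.7% of all tested genes, and the median was -0.52. The called genes were HSPA5 at -1.29 (adjusted p = 0.00671 in limma) and CALR at -1.22 (adjusted p = 0.00377). Of 11 hypoxia-responsive genes, a class to which P4HA1, P4HA2, PLOD2 and LOX are known to belong, 6 were called lower and 1 higher, with a median of -1.45. NDRG1 differed by -4.82, ADM by -4.14 and VEGFA by -4.01, while PDK1, a kinase that holds back pyruvate oxidation, rose by 1.39 (adjusted p = 0.00304). The lists share this fit with the 10 genes, so 16.7% lower and 20.2% higher among all tested genes stand beside each list's counts. No test of one list against another was made.

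**Figure D5:**
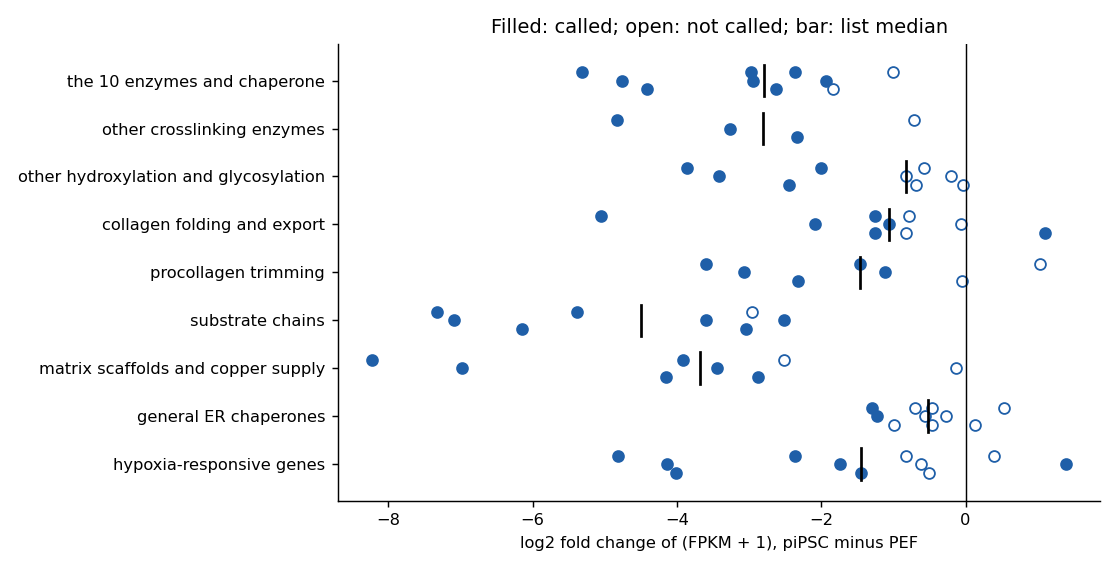
Log2 fold change of (FPKM + 1), piPSC minus PEF, for every tested gene of 9 lists, with filled points for called genes, open points for others and a bar at each list's median. The medians run from -4.50 for the substrate chains to -0.52 for the general chaperones, with -2.79 for the 10 genes.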

How the data were processed

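Processed values came from 3 PEF and 3 piPSC libraries of poly-A RNA, read from both ends over 150 bp. The authors deposited 1 table of FPKM values per gene. The submitters' processing notes name HISAT2 2.1.0, Bowtie2 2.2.3, HTSeq 0.6.0 and Sscrofa11.1, and how fragments shared between genes were counted is not given in the sources used here. Of the symbols shared with RefSeq, 99.7% lay at overlapping positions. Library totals were recovered from short genes, whose FPKM gave fragments within 0.02 of a whole number for most (422 of 443 in PEF5, the gene's span taken as its length). Each of the 18007 genes then had a length that made its fragments whole in every library within rounding. The smallest such length was used, which leaves fragments open to a common multiple, except for 113 genes set to the multiple that equals their RefSeq exons, LOXL1 among them. Totals of 11010629 to 17836510 fragments mean that counting error matters only for the lowest values.

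piPSCs were compared with PEFs by limma 3.58.1 in R 4.3.3 (lmFit, eBayes with a trend) on log2(FPKM + 1), which understates changes of low genes, for 12428 genes with a mean of at least 0.5 FPKM. The test was unpaired and two-sided with Benjamini-Hochberg adjustment, as the study's general statistics name an unpaired test. The study's own lists of changed genes, however, set each piPSC line against its matched PEF line. Calls needed an adjusted p under 0.05 and at least 2-fold. The fit and the recovery of fragments were tested on simulated data. Shares, ratios and permutation tests used Python 3.11.15 with scipy 1.17.1. Pairing by line comes from the study, as a piPSC line and the PEF line behind it share a number. Within lines, the libraries' deviations from their group means had correlations of 0.0921, 0.0946 and 0.0800, and across lines of -0.121 to 0.0553. The line as a replicate block was an alternative. Other alternatives were the pseudocount, the filter on low values, quantile normalization, rescaling of libraries, no trend, voom on fragments and leaving out each library.

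The 10 genes and all gene lists were chosen with earlier results of these data known. The text names all 10, COL1A1, COL1A2 and P4HB, and of each list up to 2 called genes with the largest rise and up to 2 with the largest fall. Genes of small counts were also named, and COL3A1, COL4A2, ELN, FN1, MIA3, SLC39A13, ATP7A, PPIB, CRTAP, COLGALT1, VEGFA and the markers were picked after their values were seen. Of the list genes, MIA2, SEC23A, COL4A1, COL6A2, SLC2A1, POU5F1 and LIN28A were not analysed here.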

Additional observations from a re-analysis of the deposited data

Results flagged for a closer look

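LOX lay lower in piPSCs in lines 5 and 7 and slightly higher in line 8. Its log2 ratio of piPSC to PEF in (FPKM + 1) was -1.35 in line 5, -4.27 in line 7 and 0.14 in line 8. With libraries rescaled to a sum of 1000000, the ratio in line 8 was -0.18, so its direction turns with the scaling. Each line is 1 pair of libraries, so the difference between lines was not tested. The fragments behind the ratios were 5496 and 1764 in line 5, 7118 and 201 in line 7 and 3510 and 2814 in line 8, all well above the limit that a count of 0 allows.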

How the results depend on the processing

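Over 15 alternatives, 8 to 10 of the 10 genes were called lower and 0 higher, and the median log2 fold change ran from -3.16 to -2.71. LOXL1, LOXL2, PLOD1, PLOD3, P4HA1, P4HA2, SERPINH1 and BMP1 were called in all 15, with SERPINH1 nearest to the threshold at an adjusted p of 0.0425 at most in limma. LOX was called in 1 (without piPSC8, -2.60), at -2.60 to -0.83 over the alternatives, and PLOD2 in 3, at -1.48 to -0.67. With the line as a replicate block, 9 genes were called, PLOD2 added at -1.0 with an adjusted p of 0.0171 in limma, and no other call among the 10 changed. Rescaling each library to a sum of 1000000 also added PLOD2, at -1.34. Median-ratio rescaling moved the median of all genes from 0.20 to -0.01 and turned 2070 lower and 2505 higher calls into 2511 and 1879, without changing a call among the 10. With COL3A1 in place of COL1A2, all 10 differences moved by more than the spread between lines, and those of LOXL1, LOXL2, PLOD1, P4HA1, P4HA2 and BMP1 changed sign. Depth limits LOXL1 in piPSC8, at 2 fragments.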
